A study of Mus musculus with 12 samples.

Results

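The genes described here are 8 target genes of PPARα, the nuclear receptor that turns on fatty acid oxidation in liver. They are Cyp4a10, Cyp4a14, Ehhadh, Acot1, Cpt1a, Pdk4, Fgf21 and Vnn1, chosen by symbol from the 22276 gene symbols measured, and every one of them had a value in all 12 libraries. RNA was sequenced from liver, quadriceps muscle, brown adipose tissue (BAT) and white adipose tissue (WAT) of male C57BL/6J mice that were 17 wk old, with 1 library for each organ and group. The NCD-veh group ate a normal chow diet. The HFD-veh and HFD-ncls groups ate a high-fat diet, with 60% of its calories from fat, from 8 wk of age. HFD-ncls mice received narciclasine (ncls), a small molecule from plants, at 1 mg/kg once weekly by oral gavage, beginning at 10 wk of age and lasting 7 wk, and the other two groups received its vehicle. How many mice contributed to a library was not stated in the sources used here, and all groups were of 1 strain and 1 sex.

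PPARα works as a pair with the retinoid X receptor. Together they bind DNA at a direct repeat of the half-site AGGTCA with 1 base between its copies, called a DR1 element, and fatty acids act as their ligands. In liver, fasting and fatty acids raise the target genes, which cover the oxidation of fatty acids in microsomes, peroxisomes and mitochondria, the hydrolysis of acyl-CoA, and the secretion of FGF21. Several of these genes are also controlled by PPARδ, PPARγ and other factors in muscle and adipose tissue, so a level in those organs is not a reading of PPARα alone.

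Levels are given as FPKM (fragments per kilobase of transcript, scaled to the mapped fragments of the library), which accounts for transcript length and can be compared between genes. Changes are log2 ratios of FPKM + 0.1 and were computed where either library of a pair reached an FPKM of 1. A difference of more than 2-fold on that scale is the only cut used. With 1 library per organ and group there was no spread between animals, so no difference has a p-value or an error, and every comparison describes these libraries only. Both contrasts use the same HFD-veh library. The values of 3 libraries per organ are therefore shown side by side, and a high or low HFD-veh library would move both contrasts in opposite directions. In whole tissue, fewer cells of a type and less RNA per cell cannot be told apart.

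The depth of the libraries, read from the steps in low FPKM values, was about 18600000 to 26200000 fragments. Markers of each organ were as labelled in all 12 libraries (Alb was without a value in liver), but some libraries also carried genes enriched in another organ. In HFD-veh muscle, 255 liver-enriched genes stood at a median of 0.671% of their level in HFD-veh liver, against 0.00832% in NCD-veh and 0.00491% in HFD-ncls muscle. Of 15 liver markers, 14 reached an FPKM of 1 in HFD-veh muscle and only 1 in each other muscle library. The summed FPKM of that list was 488.5 in HFD-veh muscle, 17.3 in NCD-veh and 8.32 in HFD-ncls muscle, and none of its genes was at 0 in HFD-veh muscle. In WAT the same median share was 0.0235% (NCD-veh), 0.109% (HFD-veh) and 0.327% (HFD-ncls), and 3, 8 and 13 of the 15 liver markers reached an FPKM of 1. Their summed FPKM in WAT had another order, at 1060, 487.7 and 595.5, of which Cyp2e1 alone made up 1053, 438.4 and 409.2 FPKM. Muscle-enriched genes in BAT stood at a median of 2.32% (NCD-veh), 1.12% (HFD-veh) and 0.280% (HFD-ncls) of their muscle level. In liver that median was 0.00576% (NCD-veh), 0.0911% (HFD-veh) and 0.0124% (HFD-ncls). Of 11 muscle markers, 10 reached an FPKM of 1 in HFD-veh liver and only 1 in each other liver library. The liver shares touch the Cyp4a genes in muscle and WAT, and Cpt1a, Ehhadh and Vnn1 in muscle. They are taken up beside those values.

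Liver had the highest mean level of 7 of the 8 genes, and Pdk4 had its lowest there. Cyp4a10 and Cyp4a14, cytochrome P450 enzymes that hydroxylate the far end of fatty acids, were close to liver-only, with 99.5% and 99.4% of their summed FPKM over the 12 libraries in the 3 liver libraries. Fgf21, an endocrine hormone of fasting, had 83.4% of its sum in liver, and Vnn1, a pantetheinase that releases cysteamine, had 77.0%. Cpt1a, the gate of long-chain fatty acids into mitochondria, had 70.3% in liver and 25.9% in WAT. The bifunctional enzyme of peroxisomal β-oxidation, Ehhadh, had 63.0% of its sum in liver and 22.7% in BAT. Acot1, a cytosolic acyl-CoA thioesterase, had 62.1% in liver and 22.0% in BAT. Pdk4, the kinase that switches off pyruvate dehydrogenase and so spares glucose, went the other way, with 49.5% of its sum in BAT, 47.8% in muscle and 0.315% in liver. For Pdk4 the ranges of BAT and muscle overlapped, at 297.6 to 352.6 FPKM against 121.9 to 414.6 FPKM, so these 2 organs have no order. For Fgf21 the ranges of WAT and BAT overlapped as well, as did those of BAT and WAT for Vnn1, of muscle and WAT for Acot1 and of BAT and muscle for Cpt1a, and the Cyp4a genes had no order outside liver. The 4 organs of Ehhadh did not overlap.

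**Figure D1:**
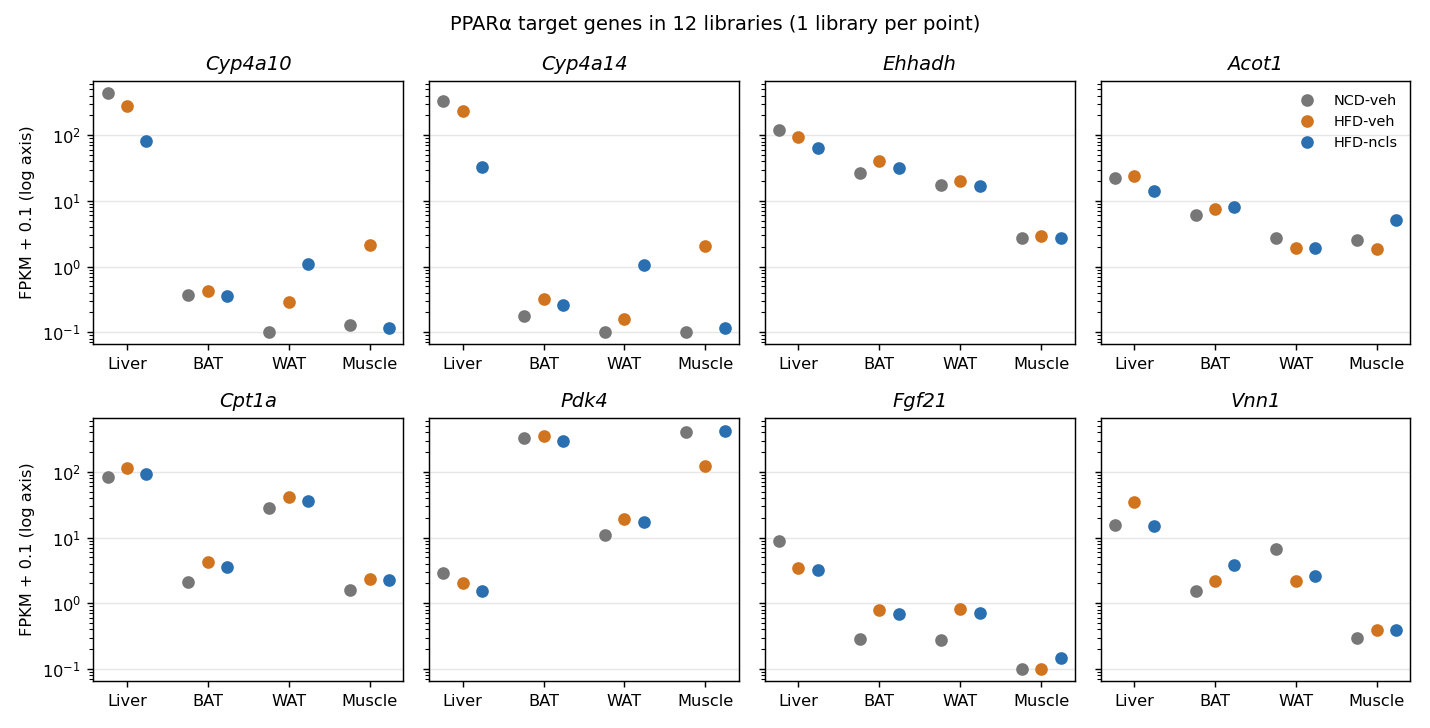
FPKM + 0.1 (log axis) of the 8 PPARα target genes in liver, BAT, WAT and muscle, with 1 point per library coloured by group. Cyp4a10 and Cyp4a14 stand above 30 FPKM in liver only, and Pdk4 stands above 100 FPKM in BAT and muscle and below 3 FPKM in liver.

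In liver, high-fat feeding left the 8 genes without a common direction, whereas with ncls all 8 stood below their HFD-veh level. Between HFD-veh and NCD-veh, all 8 passed the filter, Vnn1 was more than 2-fold higher and Fgf21 more than 2-fold lower. Over all 10016 liver genes, 2.86% were more than 2-fold higher and 2.27% more than 2-fold lower in HFD-veh. The median log2 change of the 8 genes was -0.41, beside 0.04 for all genes. Between HFD-ncls and HFD-veh, 3 of the 8 genes (Cyp4a14, Cyp4a10 and Vnn1) were more than 2-fold lower and 0 were more than 2-fold higher. Over all 9956 liver genes in that contrast, 1.31% were more than 2-fold lower and 1.00% more than 2-fold higher. The median of the 8 genes was -0.67, beside 0.02 for all genes. The changes ranged from -2.84 for Cyp4a14 to -0.11 for Fgf21, so the shared sign hides a wide spread of sizes.

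Among the microsomal enzymes, Cyp4a14 stood at 325.9 FPKM in NCD-veh, 233.3 FPKM in HFD-veh and 32.6 FPKM in HFD-ncls liver. HFD-ncls was the low library, 7.16-fold below HFD-veh (log2 change -2.84), while the log2 change with the diet was -0.48. Its log2 change with ncls was the 21st lowest of 9956 liver genes. Cyp4a10 stood at 438.5 FPKM in NCD-veh, 277.2 FPKM in HFD-veh and 80.8 FPKM in HFD-ncls liver. It was 3.43-fold lower with ncls (log2 change -1.78, the 38th lowest) and 1.58-fold lower with the diet. For both genes the 3 libraries stepped down in the same order, NCD-veh, HFD-veh, HFD-ncls, and the larger step was the one with ncls.

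The 2 genes lie next to each other on mouse chromosome 4 in mm9, Cyp4a10 at chr4:115190869-115206254 on the plus strand and Cyp4a14 at chr4:115158805-115168747 on the minus strand. Their coding sequences are 75.4% identical, and no window of 50 bases of the Cyp4a14 transcript occurs in another gene. Cyp4a10 is 97.2% identical to Cyp4a32 and 96.3% to Cyp4a31 in coding sequence, and 30.5% of its 50-base windows occur in a transcript of another gene, so fragments could be split among these 3 genes. Cyp4a32 stood at 105.2, 72.0 and 27.1 FPKM, and Cyp4a31 at 41.7, 21.1 and 7.42 FPKM (NCD-veh, HFD-veh, HFD-ncls). Both copies were also lowest in HFD-ncls liver. The other branch of the family went another way. Cyp4a12a stood at 65.1, 58.8 and 83.9 FPKM and Cyp4a12b at 46.4, 39.7 and 52.8 FPKM, both highest in HFD-ncls liver, with log2 changes under 2-fold. The make-up of the Cyp4a family differed too, with Cyp4a14 at 33.2% (HFD-veh) and 11.4% (HFD-ncls) of the summed Cyp4a FPKM in liver, and Cyp4a12a at 8.37% and 29.5%.

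**Figure D2:**
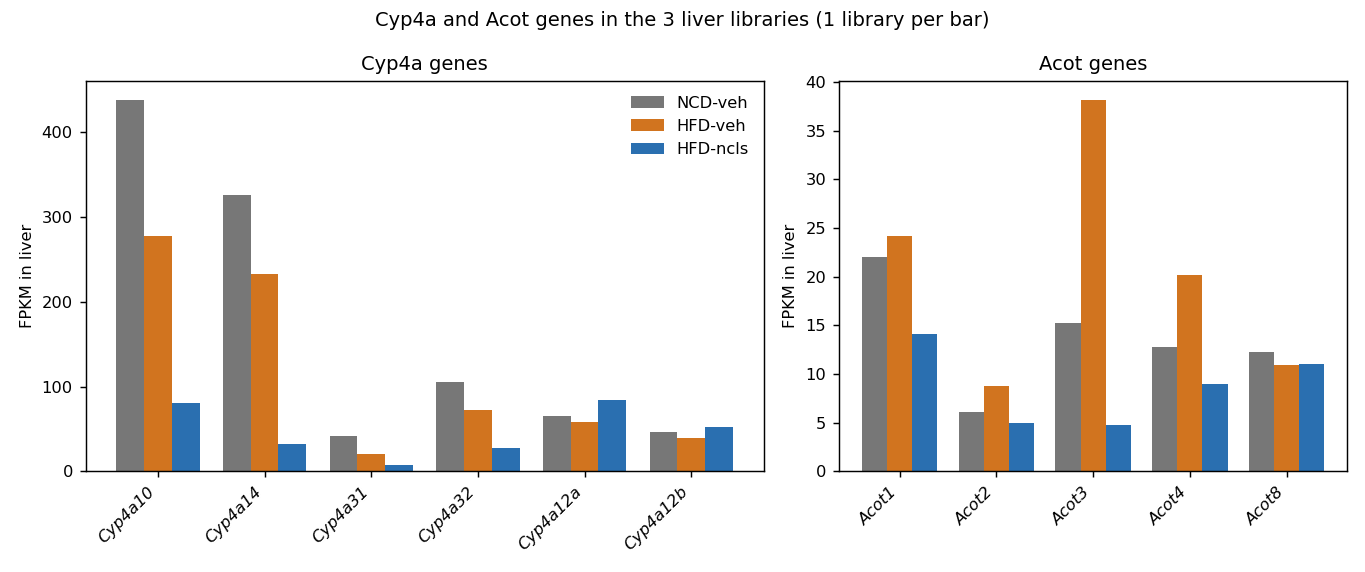
FPKM (linear axis from 0) of the Cyp4a genes and of the Acot thioesterase genes in the 3 liver libraries, with 1 bar per library. Cyp4a10, Cyp4a14, Cyp4a31 and Cyp4a32 are lowest in HFD-ncls liver while Cyp4a12a and Cyp4a12b are highest there, and Acot3 goes from 38.2 FPKM in HFD-veh to 4.77 FPKM in HFD-ncls liver.

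Ehhadh, at chr16:21761360-21787917 on the minus strand, stood at 118.1 FPKM in NCD-veh, 93.0 FPKM in HFD-veh and 62.9 FPKM in HFD-ncls liver. Its values stepped down in the order seen for the Cyp4a genes, but HFD-ncls was only 1.48-fold below HFD-veh (log2 change -0.56). The change ranked 579th lowest of the 9956 genes. Hsd17b4, a peroxisomal enzyme that can do the same steps as Ehhadh, did not share the order. It stood at 102.4, 142.8 and 123.0 FPKM, highest in HFD-veh liver.

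Acot1, at chr12:85350448-85358621 on the plus strand, stood at 22.0 FPKM in NCD-veh, 24.1 FPKM in HFD-veh and 14.1 FPKM in HFD-ncls liver. The 2 vehicle libraries were within 1.10-fold of each other and the HFD-ncls library was 1.71-fold below HFD-veh (log2 change -0.77). The Acot1 coding sequence is 96.1% identical to that of Acot2 over the aligned bases, and 47.1% of its 50-base windows occur in another gene, so the split of fragments between these genes is uncertain. Acot2, the mitochondrial copy, stood at 6.10, 8.80 and 4.99 FPKM. The neighbours Acot3 and Acot4, peroxisomal thioesterases, showed larger steps. Acot3 stood at 15.2 FPKM in NCD-veh, 38.2 FPKM in HFD-veh and 4.77 FPKM in HFD-ncls liver, and Acot4 at 12.7, 20.2 and 8.98 FPKM. All 4 thioesterase genes had their lowest liver level in HFD-ncls, and Acot8 did not.

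Cpt1a, like Vnn1 and Acot1, was higher in HFD-veh than in NCD-veh liver, where the Cyp4a genes were lower. It stood at 83.4 FPKM in NCD-veh, 112.5 FPKM in HFD-veh and 93.5 FPKM in HFD-ncls liver, so HFD-veh was 1.35-fold above NCD-veh and HFD-ncls 1.20-fold below HFD-veh. Neither step reached 2-fold. The gene lies at chr19:3323301-3385732 on the plus strand (mm9). Of the 8 genes, 5 (Cpt1a, Pdk4, Fgf21, Acot1 and Ehhadh) had a promoter window in the RefSeq table used here (GRCm38.p6, 250 bases before to 50 after the start of transcription). The others were Cyp4a10, Cyp4a14 and Vnn1. The Cpt1a window was the only one of the 5 with an exact AGGTCA half-site on either strand, which 16.3% of all 32841 promoter windows held. It is shown because it carries that match, which lies 94 bases before the start. The sequence is chr19:3323051-3323300 of GRCm38.p6, plus strand, 5′ to 3′, with the half-site, read on the other strand, in capitals.
Cpt1a: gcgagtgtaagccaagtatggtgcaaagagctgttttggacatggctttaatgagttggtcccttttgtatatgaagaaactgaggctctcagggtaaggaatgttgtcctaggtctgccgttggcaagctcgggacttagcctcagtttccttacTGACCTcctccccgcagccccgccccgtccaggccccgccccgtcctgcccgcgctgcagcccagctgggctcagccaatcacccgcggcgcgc

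No member window held a DR1 element with at most 2 mismatches in its 12 half-site bases, on either strand. Such a match occurs in 3.86% of all promoter windows and in the windows of 7 of 32 other PPARα target genes with a window. The first rate is per window and the second per gene with any matching window, so their units are unlike. An exact half-site occurs in 9 of those 32, and the matches of the DR1 element can include an exact half-site. The 3 DR1 matches in genes past 2-fold in liver are shown with 8 bases on each side, from GRCm38.p6 and 5′ to 3′ on the strand of the gene, with the bases that match the element in capitals. Fabp1 is at chr6:71199804-71199832 (plus strand) with 11 of 12 bases matching, Acot4 at chr12:84038358-84038386 (plus strand) with 10, and Cd36 at chr5:17835939-17835967 (minus strand) with 10.
Fabp1: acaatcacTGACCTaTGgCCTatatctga
Acot4: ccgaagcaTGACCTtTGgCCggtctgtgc
Cd36: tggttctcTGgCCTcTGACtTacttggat
HFD-veh was the highest of the 3 liver libraries for each of these genes, and the sizes of the steps differed. These 3 were picked because they passed 2-fold in liver. The other genes with a DR1 match were not all highest in HFD-veh liver, so the shared high library is not a trait of the match. Fabp1, the fatty acid carrier of hepatocytes, stood at 3339, 7341 and 6690 FPKM (NCD-veh, HFD-veh, HFD-ncls), and Cd36, a fatty acid transporter, stood at 5.98, 21.5 and 7.38 FPKM. With the diet the log2 changes were 1.14 (Fabp1), 0.66 (Acot4) and 1.83 (Cd36), and with ncls they were -0.13, -1.16 and -1.53. A match in such a window is a description of its letters, and sites outside the window were not searched.

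Pdk4, at chr6:5433351-5446309 on the minus strand, was low in liver, at 2.81 FPKM in NCD-veh, 1.94 FPKM in HFD-veh and 1.45 FPKM in HFD-ncls. The values stepped down in the Cyp4a order, by 1.45-fold with the diet and 1.34-fold with ncls. They rest on about 230, 152 and 119 fragments. The kinase family in liver was mostly Pdk2, at 40.6, 54.5 and 68.9 FPKM, and Pdk4 made up 5.48%, 2.63% and 1.73% of the summed Pdk FPKM. Muscle-enriched genes stood at 0.0911% of their muscle level in HFD-veh liver, and that share of muscle Pdk4 comes to 0.111 FPKM, well under the 1.94 FPKM measured.

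Fgf21, at chr7:52869277-52870860 on the minus strand, stood at 8.83 FPKM in NCD-veh, 3.29 FPKM in HFD-veh and 3.05 FPKM in HFD-ncls liver. NCD-veh was the high library, 2.68-fold above HFD-veh, and the 2 HFD libraries were within 1.08-fold of each other. These levels rest on about 193, 69 and 67 fragments, so the difference between the 2 HFD libraries is not detectable at this depth. The co-receptor gene Klb, without which FGF21 cannot signal, stood at 6.44, 7.46 and 3.35 FPKM in liver, 2.23-fold below HFD-veh in the HFD-ncls library. The receptor genes Fgfr2, Fgfr3 and Fgfr4 stood at 3.44, 6.00 and 9.97 FPKM in HFD-veh and at 2.93, 5.66 and 14.7 FPKM in HFD-ncls liver, all within 2-fold.

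Vnn1, at chr10:23614494-23625149 on the plus strand, was the only member that was more than 2-fold higher in HFD-veh than in NCD-veh liver. It stood at 15.6 FPKM in NCD-veh, 34.1 FPKM in HFD-veh and 14.9 FPKM in HFD-ncls liver. HFD-veh was thus the high library, 2.18-fold above NCD-veh and 2.28-fold above HFD-ncls (log2 changes of 1.12 and -1.19), and the other two were within 1.05-fold of each other. The related gene Vnn3 showed no such step, at 26.2, 25.5 and 23.4 FPKM. Between HFD-ncls and NCD-veh liver, Cyp4a14 was 10.0-fold lower, Cyp4a10 5.43-fold lower and Fgf21 2.89-fold lower, and the other 5 members, Vnn1 included, were within 2-fold. The share of all genes past 2-fold was not computed for this pair of libraries. The median log2 change of the members was -0.91, beside 0.05 for all 9959 genes.

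In muscle, the member that stood out was Pdk4. It stood at 403.6 FPKM in NCD-veh, 121.9 FPKM in HFD-veh and 414.6 FPKM in HFD-ncls muscle. HFD-veh was the low library, 3.31-fold below NCD-veh and 3.40-fold below HFD-ncls, and the other two were within 1.03-fold of each other. The log2 change of -1.73 with the diet was the 27th lowest of 9585 muscle genes, and that of 1.77 with ncls was the 25th highest of 9694. Both values were the same to 2 decimals after the liver share was subtracted. Pdk2, the other main isoform, was level at 248.5, 252.3 and 258.8 FPKM, so Pdk4 made up 61.1% (NCD-veh), 31.9% (HFD-veh) and 60.7% (HFD-ncls) of the summed Pdk FPKM in muscle.

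Acot1 in muscle stood at 2.42 FPKM in NCD-veh, 1.77 FPKM in HFD-veh and 4.96 FPKM in HFD-ncls. HFD-ncls was the high library, 2.80-fold above HFD-veh (log2 change 1.44, the 42nd highest) and 2.05-fold above NCD-veh. Its near-identical copy Acot2 followed the same order, at 8.66, 5.13 and 13.6 FPKM. Acot1 made up 21.9%, 25.7% and 26.7% of the summed FPKM of the pair. As in liver, the split of fragments between these genes is uncertain, so the 2 genes are not independent readings. Cpt1a in muscle stood at 1.49, 2.27 and 2.18 FPKM and Ehhadh at 2.66, 2.78 and 2.66 FPKM, both within 2-fold in either contrast. In HFD-veh muscle the liver share comes to 0.624 FPKM for Ehhadh and 0.755 FPKM for Cpt1a. After subtraction of the liver share, the log2 change of Cpt1a with the diet went from 0.57 to 0.02. The muscle isoform Cpt1b, at 106.1, 91.7 and 118.8 FPKM, carried nearly all of the Cpt1 signal there.

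Cyp4a10 and Cyp4a14 reached 1 FPKM in 1 muscle library only. Cyp4a10 stood at 0.0293 FPKM in NCD-veh, 2.02 FPKM in HFD-veh and 0.0158 FPKM in HFD-ncls muscle. Cyp4a14 was listed at 0 in NCD-veh and stood at 1.93 FPKM in HFD-veh and 0.0155 FPKM in HFD-ncls muscle. In HFD-veh muscle the 2 genes stood at 0.729% and 0.826% of their HFD-veh liver level, within the quartiles of 0.536% and 0.886% of the 255 liver-enriched genes. After subtraction of the liver share, neither gene passed the filter in muscle. Of the 8 genes, 6 passed the filter in muscle in each contrast. In HFD-veh against NCD-veh, 2 of them (the Cyp4a genes) were more than 2-fold higher and 1 (Pdk4) more than 2-fold lower, beside 3.14% and 0.970% of all genes. In HFD-ncls against HFD-veh, 2 (Pdk4 and Acot1) were more than 2-fold higher and 2 (the Cyp4a genes) more than 2-fold lower, beside 1.27% and 2.53% of all genes. With the liver share subtracted, 4 members passed the filter. Pdk4 alone was then past 2-fold with the diet, and Pdk4 and Acot1 with ncls, and the median log2 change went from 0.32 to -0.42 with the diet and from -0.06 to 1.03 with ncls. Fgf21 (listed at 0 in both vehicle libraries and at 0.0479 FPKM in HFD-ncls) and Vnn1 (0.200, 0.285 and 0.290 FPKM) did not pass the filter in muscle. The liver share of Vnn1 in HFD-veh muscle comes to 0.229 FPKM of the 0.285 FPKM measured.

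**Figure D3:**
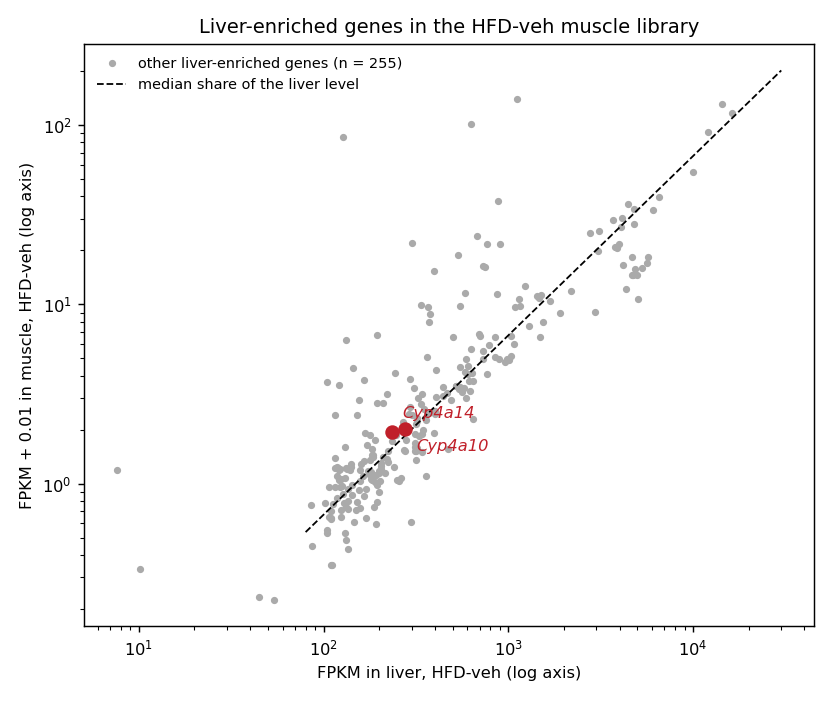
FPKM in HFD-veh muscle (plus 0.01) against FPKM in HFD-veh liver, both on log axes, for 255 liver-enriched genes (grey) and for Cyp4a10 and Cyp4a14 (red). The dashed line is the median share of 0.671%, and both Cyp4a genes lie close to it.

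In BAT, no member was more than 2-fold different in either contrast, out of 5 that passed the filter. Of all BAT genes, 2.28% were more than 2-fold higher and 2.01% more than 2-fold lower in HFD-veh than in NCD-veh. Between HFD-ncls and HFD-veh the shares were 0.261% higher and 1.70% lower. The 5 members were all higher in HFD-veh than in NCD-veh, with a median log2 change of 0.49 beside -0.04 for all genes. Cpt1a came nearest to the cut, at 2.02 FPKM in NCD-veh, 4.08 FPKM in HFD-veh and 3.45 FPKM in HFD-ncls BAT. Its ratio of 2.02 with the diet fell just under 2-fold on the scale with the pseudocount (log2 change 0.98). Ehhadh stood at 26.8, 40.4 and 31.2 FPKM, Acot1 at 5.91, 7.40 and 8.09 FPKM, and Pdk4 at 323.7, 352.6 and 297.6 FPKM. Vnn1 stepped up through the BAT libraries, at 1.44, 2.07 and 3.73 FPKM. Its log2 change of 0.82 with ncls was the 56th highest of 10329 BAT genes, in the opposite direction to liver. Muscle markers stood lower from library to library in the same order, with a summed FPKM of 2468, 996.8 and 181.8 over 11 genes and none at 0. The muscle share of Pdk4 in BAT comes to 9.37, 1.36 and 1.16 FPKM, under 10 FPKM in each library.

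In WAT, Vnn1 was the one member past 2-fold, and it moved against its direction in liver. It stood at 6.71 FPKM in NCD-veh, 2.10 FPKM in HFD-veh and 2.51 FPKM in HFD-ncls WAT, so NCD-veh was the high library, 3.20-fold above HFD-veh (log2 change -1.63). Vnn3 followed, at 15.3, 5.41 and 5.94 FPKM. Markers of cell types differed between the same WAT libraries. The summed FPKM of 7 adipocyte markers was 26896, 17971 and 16605, and that of 6 macrophage markers 585.8, 862.8 and 1102, with none at 0. The members of the adipocyte list did not move alike. Cfd stood at 8163, 653.2 and 752.9 FPKM and made up most of the difference in the sum, Fabp4 was near level at 12720, 12381 and 11212 FPKM, and Lep was highest in HFD-veh, at 300.2, 1199 and 1062 FPKM. The part of cell types in the Vnn1 difference was not tested. Pdk4 stood at 10.7, 19.1 and 17.0 FPKM, Cpt1a at 28.2, 42.1 and 36.3 FPKM, Ehhadh at 17.5, 19.8 and 16.8 FPKM, and Acot1 at 2.61, 1.83 and 1.80 FPKM. Of the 5 members that passed the filter, 0 were more than 2-fold higher and 1 more than 2-fold lower with the diet, beside 5.24% and 3.87% of all WAT genes. With ncls, 0 of 5 were past 2-fold in either direction, beside 1.49% higher and 0.214% lower of all genes. The median log2 change of the 5 was 0.18 with the diet and -0.17 with ncls.

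Fgf21 in the adipose tissues was below the filter but ran against liver. It stood at 0.177 FPKM in NCD-veh, 0.727 FPKM in HFD-veh and 0.599 FPKM in HFD-ncls WAT, and at 0.189, 0.690 and 0.592 FPKM in BAT. Each of these values rests on about 3 to 16 fragments, and NCD-veh was the low library in both organs, whereas it was the high library in liver. The Cyp4a genes were also below the filter in WAT. Cyp4a10 was listed at 0 in NCD-veh WAT and stood at 0.191 FPKM in HFD-veh and 0.977 FPKM in HFD-ncls WAT. Cyp4a14 was listed at 0 and stood at 0.0590 and 0.972 FPKM. HFD-ncls WAT, the highest library for both, was also the highest by the number of liver markers that reached 1 FPKM and by the median share of liver-enriched genes (0.327%), though not by the summed FPKM of the liver markers, which was highest in NCD-veh WAT. In HFD-ncls WAT the 2 genes stood at 1.21% and 2.98% of their HFD-ncls liver level. The quartiles of the 255 liver-enriched genes there were 0.231% and 1.55%. The liver share comes to 0.264 of the 0.977 FPKM of Cyp4a10 and 0.107 of the 0.972 FPKM of Cyp4a14. The source of the rest was not tested.

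**Figure D4:**
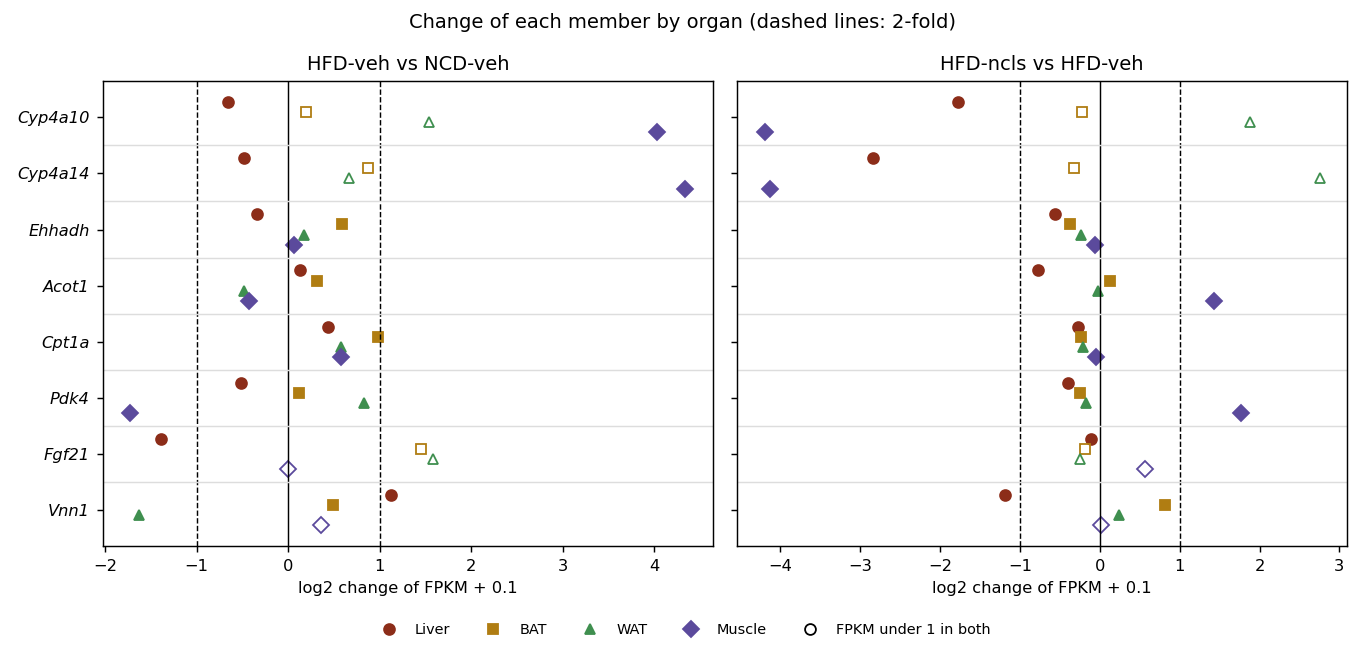
Log2 change of FPKM + 0.1 of each member in liver, BAT, WAT and muscle, for HFD-veh against NCD-veh (left) and HFD-ncls against HFD-veh (right), with dashed lines at 2-fold and open symbols for genes under 1 FPKM in both libraries. All 8 liver points lie left of 0 with ncls, while Pdk4 and Acot1 in muscle lie right of the 2-fold line.

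Set side by side, the ncls contrast differed most between liver and the other organs for Acot1, Pdk4 and Vnn1 among members that passed the filter in both organs, apart from the Cyp4a genes in muscle. The log2 change of Acot1 was -0.77 in liver and 1.44 in muscle, a difference of -2.21 (liver minus muscle). Its split of fragments from Acot2 is uncertain in these organs. The log2 change of Pdk4 was -0.40 in liver and 1.77 in muscle, a difference of -2.16. For Vnn1 it was -1.19 in liver and 0.82 in BAT, a difference of -2.01. Without subtraction of the liver share, Cpt1a was the most even, at -0.27 in liver, -0.24 in BAT, -0.21 in WAT and -0.05 in muscle. The liver share of Cpt1a comes to 0.755 of 2.27 FPKM in HFD-veh muscle and 0.00459 of 2.18 FPKM in HFD-ncls muscle. Its subtraction lowers mainly the HFD-veh level, so the muscle value of -0.05 depends on it. With the diet, Cpt1a was higher in HFD-veh than in NCD-veh in all 4 organs (log2 changes of 0.43, 0.98, 0.58 and 0.57 in liver, BAT, WAT and muscle). In muscle that change was 0.02 after subtraction of the liver share, so the higher level there was not seen with that subtraction. These differences have no error, since each organ gave 1 value per contrast.

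Cpt1a and Pdk4 are set beside the other isoforms of their families. Cpt1a made up between 97.9% and 99.2% of the summed Cpt1 FPKM in liver and between 89.8% and 93.5% in WAT, while Cpt1b replaced it in BAT and muscle. Cpt1b stood at 183.6, 249.9 and 239.3 FPKM in BAT, against 2.02 to 4.08 FPKM for Cpt1a. Pdk4 made up between 66.2% and 72.9% of the Pdk sum in BAT, and in WAT its share was 14.9% (NCD-veh), 32.8% (HFD-veh) and 29.5% (HFD-ncls). In WAT, Pdk2 stood at 46.9, 28.7 and 28.0 FPKM, so the share of Pdk4 moved with both genes.

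**Figure D5:**
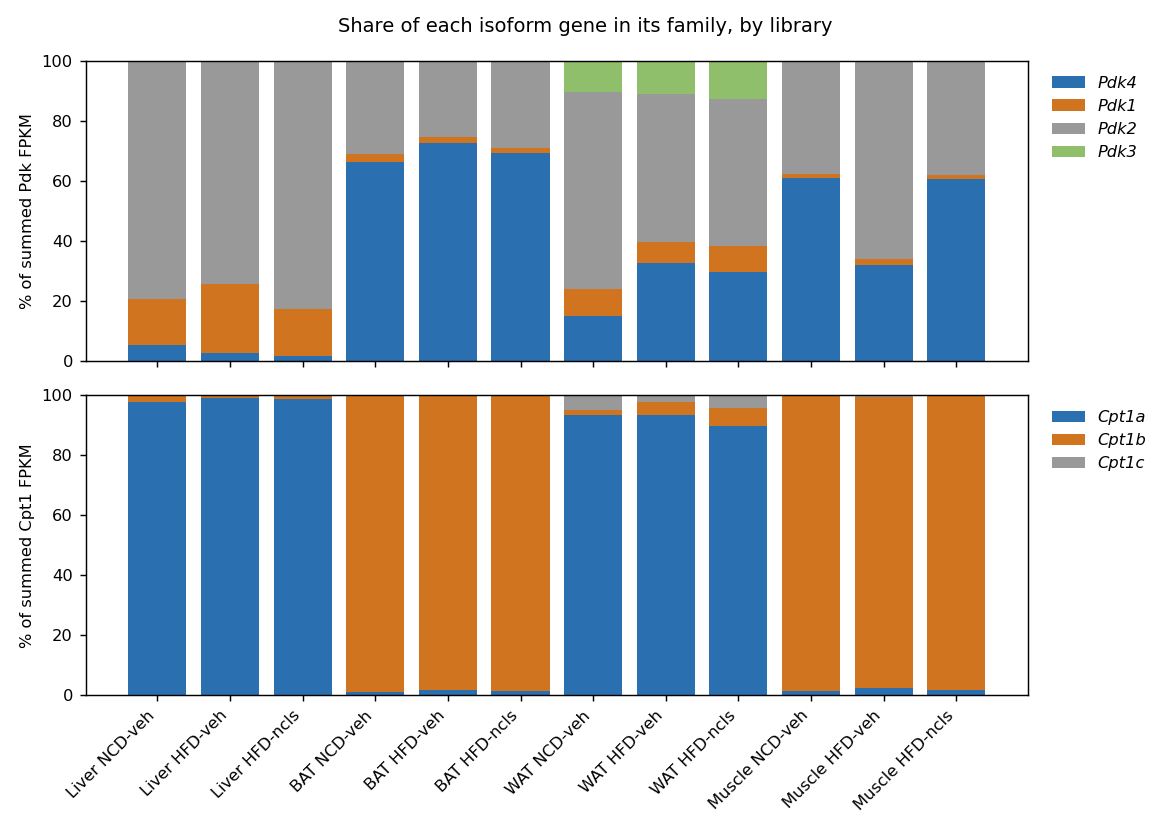
Share (%) of each Pdk gene (top) and each Cpt1 gene (bottom) in the summed FPKM of its family in the 12 libraries. The Pdk4 share in muscle is 31.9% in HFD-veh against 61.1% in NCD-veh and 60.7% in HFD-ncls, and Cpt1a gives way to Cpt1b in BAT and muscle.

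The receptor itself was measured in all organs. Ppara stood at 34.3 FPKM in NCD-veh, 52.4 FPKM in HFD-veh and 36.9 FPKM in HFD-ncls liver, with HFD-veh the high library and all within 2-fold. It stood at 35.2, 45.1 and 41.7 FPKM in BAT, at 1.20, 1.23 and 1.37 FPKM in muscle and at 2.41, 1.91 and 1.72 FPKM in WAT. Ppard, the main form in muscle, stood at 8.99, 10.4 and 11.1 FPKM there, and Pparg, the adipocyte form, stood at 129.2, 108.6 and 125.2 FPKM in WAT. In liver Pparg stood at 2.81, 7.47 and 6.22 FPKM. The partner Rxra stood at 62.6, 71.2 and 84.3 FPKM in liver. In liver, HFD-veh was the highest library for Ppara as it was for Cpt1a, Acot1 and Vnn1, whereas NCD-veh was the highest for the Cyp4a genes, Ehhadh, Pdk4 and Fgf21.

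A wider list of 43 other PPARα target genes gave the surroundings of the 8. In HFD-veh against NCD-veh liver, 42 passed the filter. Of these, 5 were more than 2-fold higher (Aldh3a2, Acot3, Fabp1, Cd36 and Cidec) and 1 more than 2-fold lower (Crot). The shares over all liver genes were 2.86% and 2.27%, and the median log2 change of the list was 0.24. In HFD-ncls against HFD-veh liver, 41 passed and 1 was more than 2-fold higher (Pltp). Another 8 were more than 2-fold lower (Abcd2, Cyp4a31, Cyp4a32, Acot3, Acot4, Cd36, Cidec and G0s2). The shares over all liver genes were 1.00% higher and 1.31% lower, and the median of the list was -0.22. G0s2, an inhibitor of the lipase ATGL, stood at 283.9, 172.7 and 51.0 FPKM, in the order of the Cyp4a genes. Cidec, a lipid droplet protein, stood at 1.75, 5.88 and 2.43 FPKM and Aldh3a2, a fatty aldehyde dehydrogenase, at 75.8, 187.6 and 107.2 FPKM, with HFD-veh high as for Vnn1. Abcd2, a peroxisomal transporter, stood at 4.26, 4.45 and 2.16 FPKM. Crot, which makes acylcarnitines in peroxisomes, stood at 208.9, 99.6 and 62.7 FPKM. Pltp, the phospholipid transfer protein of plasma, was highest in HFD-ncls, at 13.3, 14.1 and 34.1 FPKM.

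By role, the mitochondrial genes of the list stayed nearest to the level of all genes with ncls in liver. Of 12 genes of mitochondrial oxidation and ketogenesis past the filter, 0 were beyond 2-fold, with a median log2 change of -0.13. Over all liver genes, 1.31% were more than 2-fold lower and 1.00% higher. The 5 microsomal genes had a median of -0.81. The 2 that were more than 2-fold lower were Cyp4a31 and Cyp4a32, near-copies of Cyp4a10, while Cyp4a12a and Cyp4a12b were higher. The 5 thioesterase and activation genes had a median of -0.81, with 2 more than 2-fold lower. The 10 peroxisomal genes had a median of -0.21, with 1 more than 2-fold lower, and the 9 genes of lipid binding, droplets and plasma lipid a median of -0.38, with 3 more than 2-fold lower and 1 higher.

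In the other organs the counts of the 43 genes are given beside the shares of all genes. In BAT, 36 passed the filter. With the diet, 1 was more than 2-fold higher (Ucp3) and 0 lower, beside 2.28% and 2.01% of all genes. With ncls, 0 changed that much, beside 0.261% higher and 1.70% lower. In WAT, 37 passed, and 4 were more than 2-fold higher and 2 lower with the diet, beside 5.24% and 3.87% of all genes. With ncls, 1 was higher (Fabp1, at 4.69 FPKM in HFD-veh and 19.9 FPKM in HFD-ncls) and 0 lower, beside 1.49% and 0.214%. In muscle, 36 passed, and 4 were more than 2-fold higher and 1 lower with the diet, beside 3.14% and 0.970% of all genes. With ncls, 2 were higher and 3 lower, beside 1.27% and 2.53%. Fabp1, a gene of liver and gut, stood at 0.511 and 58.4 FPKM in NCD-veh and HFD-veh muscle and was listed at 0 in HFD-ncls muscle, in the order of the liver markers there. The 2 genes higher with ncls in muscle were Acot2 and Angptl4, the latter an inhibitor of lipoprotein lipase at 6.47, 4.12 and 8.40 FPKM. Ucp3, a mitochondrial carrier of muscle, stood at 115.1, 52.7 and 95.2 FPKM in muscle, with HFD-veh the low library as for Pdk4.

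Genes with the pattern most like each member were sought among 8061 genes over the 12 libraries, by Pearson's r of log2(FPKM + 0.1) with the mean of each organ removed. These candidates reached an FPKM of 1 in at least 1 library of each organ, so liver genes could enter through libraries with liver RNA. The points share libraries within an organ, and the highest r of so many genes is high by selection, so these are descriptions. For Cyp4a10 the 3 most alike were Slc27a2 (r = 0.92), Cyp2d26 (r = 0.91) and Adora1 (r = 0.91). In liver (NCD-veh, HFD-veh, HFD-ncls), Slc27a2 stood at 517.9, 547.3 and 482.0 FPKM and Cyp2d26 at 588.5, 635.0 and 567.1 FPKM. Neither had the liver steps of Cyp4a10. Both reached 1 FPKM in WAT only in HFD-ncls. Slc27a2 and Cyp2d26 stood at 3.44 and 4.13 FPKM in HFD-veh muscle against under 0.06 FPKM in the other muscle libraries, the library with the highest level of liver markers. For Cyp4a14 the 3 were Hsf2 (r = 0.88), Nucb2 (r = 0.88) and Kng1 (r = 0.85). Kng1 reached 1 FPKM in muscle only in HFD-veh and in WAT only in HFD-ncls. Pdk4 was nearest to Atf7ip (r = 0.95), Dync1h1 (r = 0.94) and Rcor1 (r = 0.94), and Atf7ip stood at 4.39, 1.62 and 3.89 FPKM in muscle. Acot1 was nearest to Zfp275 (r = 0.95), Rnf19a (r = 0.95) and Gabarapl1 (r = 0.94), an autophagy gene at 21.9, 16.9 and 30.9 FPKM in muscle. For Cpt1a the 3 were Ptk2 (r = 0.96), Ehd3 (r = 0.94) and Rab11a (r = 0.94), and for Ehhadh they were Ikbkg (r = 0.93), Cdc42bpa (r = 0.91) and Ppapdc1b (r = 0.91). Fgf21 was nearest to Itsn1 (r = 0.95), Fam43a (r = 0.95) and Cd97 (r = 0.94), and Vnn1 to A730098P11Rik (r = 0.94), Cdadc1 (r = 0.93) and Stag1 (r = 0.93).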

How the data were processed

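Reads were mapped by the authors to mm9 with TopHat, RefSeq genes were quantified with Cufflinks, and 1 FPKM value per gene symbol and library was deposited. No scaling between libraries beyond FPKM is stated, and the Cufflinks version is not given in the sources used here. The 12 libraries were mapped to organ and group from their titles.

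Log2 ratios of FPKM + 0.1 were computed with Python 3.11.15, numpy 2.4.6 and pandas 2.3.3 where either library of a pair reached an FPKM of 1, after symbols lacking a value in the organ were left out. Figures were drawn with matplotlib 3.10.9. FPKM is not a count, so no count test was run, and with 1 library per group no test within an organ was possible. The members, gene lists and thresholds were chosen with earlier results of these data known. The text names all 8 members, other targets past 2-fold in liver, receptors, isoforms and markers set beside a member, and the 3 genes most like each member. Other genes named past 2-fold outside liver, and Hsd17b4 and Acot8 in liver, were chosen after their values were seen. Some genes of the lists are counted but not reported by name here.

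A gene counted as enriched in an organ when its mean there reached 10 FPKM and exceeded the median of the remaining 9 libraries 20-fold, and shares used those that reached 100 FPKM. Depth was estimated from the steps of low FPKM values of genes with 1 transcript and is approximate. Promoter windows came from RefSeq (GRCm38.p6), and gene positions and transcripts from GENCODE (mm9). Coding sequences were aligned globally with Biopython 1.88. The scripts were tested on simulated data. Alternatives covered the pseudocount, the filter, rescaling, the threshold, and subtraction of liver or muscle RNA. The muscle comparison of ncls in chow-fed mice was not analysed here.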

Additional observations from a re-analysis of the deposited data

Results flagged for a closer look

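For Vnn1, Ucp3 and Fabp1, one organ was more than 2-fold higher and another more than 2-fold lower in the same contrast, and with 1 library per group none of these differences was tested. The log2 change of Vnn1 with the diet was 1.12 in liver and -1.63 in WAT. Among the other targets, Ucp3 was at 1.64 in BAT and -1.12 in muscle with the diet. Fabp1 was at 2.06 in WAT and -9.19 in muscle with ncls, and in both organs it was highest in the library with the highest median share of liver-enriched genes. It was listed at 0 in HFD-ncls muscle, so the muscle value depends on the pseudocount.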

How the results depend on the processing

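With 1 library per group, no replicate could be left out. Depth limits the values of Fgf21 and of the Cyp4a genes outside liver. RNA of other organs is a limit in muscle, WAT, BAT and HFD-veh liver. No paired analysis was possible because, within an organ, each group has 1 library, and the labels do not say which animals gave it. A count was taken to hold when it stayed within 1.5 times, and a log2 value when it moved by less than 1.5-fold. Of 68 alternative counts of members past 2-fold, 53 held, as did 50 of 68 for the other targets, 48 of 52 medians and 276 of 284 changes of single members. The other 8 changes were those of Cyp4a10 and Cyp4a14 in muscle under pseudocounts of 1 and 0.01. The 1.5-fold tolerance is wider than many of the changes themselves, so a small change can vanish or change sign and still be held. The Cpt1a change with the diet in muscle, not seen with liver RNA subtracted, was among those held. The tally therefore says little about small changes. A member that fell under the filter in an alternative was not counted among the 284. Cyp4a10 and Cyp4a14 in muscle with liver RNA subtracted are therefore not in that tally, although their calls were lost. A change of sign was sought only for reported log2 values of at least 1 in size, and none of those changed sign. The medians of the members in muscle, which were smaller, changed sign in each contrast with liver RNA subtracted.

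The shares over all genes were not computed at the alternative settings. The counts below therefore show only how the calls moved, and cannot be set against all genes. At 1.4-fold, members past the cut numbered 4 (liver), 3 (BAT) and 4 (WAT) with the diet and 5 (liver) and 1 (BAT) with ncls, and other targets 18 (liver), 8 (BAT), 11 (WAT) and 15 (muscle) with the diet and 1 (BAT), 3 (WAT) and 13 (muscle) with ncls. At 3-fold, 0 members remained past the cut in liver with the diet, and other targets numbered 2 (liver), 3 (WAT) and 3 (muscle) with the diet and 2 (liver) and 3 (muscle) with ncls. Without the filter, members numbered 1 (BAT) and 3 (WAT) with the diet and 2 (WAT) with ncls, and other targets 8 (muscle) with the diet and 5 (WAT) and 8 (muscle) with ncls. With a filter of 5 FPKM, Pdk4 was the 1 member left in muscle, with medians of -1.73 (diet) and 1.77 (ncls), and other targets in WAT with the diet numbered 3. A pseudocount of 0.01 or rescaling by the median ratio put 1 member, Cpt1a, past 2-fold in BAT with the diet. With liver RNA subtracted, muscle had 1 member (diet) and 2 members (ncls) past 2-fold, with medians of -0.42 and 1.03, and other targets with ncls numbered 3 in muscle and 0 in WAT.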

Other observations

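Measured against HFD-veh liver instead of HFD-ncls liver, the HFD-ncls WAT levels of Cyp4a10 and Cyp4a14 were 0.353% and 0.417%, beside a median of 0.312% for the 255 liver-enriched genes. In HFD-veh muscle the 2 genes stood at 0.729% and 0.826% of HFD-veh liver (median 0.671%) and at 2.50% and 5.91% of HFD-ncls liver (median 0.670%).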
